A study of Mus musculus with 12 samples.

Results

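Expression of 9 genes that carry peptides into the endoplasmic reticulum (ER), trim them there or help to load them onto MHC class I was followed in Myc-CaP cells treated with oxaliplatin (Oxali), interferon γ (IFNγ) or both. The genes were Tap1, Tap2, Tapbp, Tapbpl, Erap1, Calr, Canx, Pdia3 and Sec22b. They were picked by symbol for their known roles, and all 9 were found among the 55216 genes of the count table and among the 13177 genes with enough counts to be tested.

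Myc-CaP is an established line from a prostate carcinoma of a mouse that overexpresses MYC in the prostate, and the labels give its strain as FVB/NJ. RNA-seq libraries of polyA RNA were made after 48 h from 6 groups of 2: untreated cells (Ctrl), IFNγ at 200 pg (IFN200) or 2000 pg (IFN2000), Oxali at 2 μM, and Oxali at 2 μM with IFNγ at 200 pg (Combo200) or 2000 pg (Combo2000). The labels give the IFNγ dose without a volume, and the study states it per mL. All groups are 1 cell line, and no source used here says whether the 2 libraries of a group came from separate cultures, so p-values measure the spread between these libraries, which may be technical. Groups follow the sample titles. A second label, the agent, exchanges the 3 single treatments: it gives Oxali for the libraries titled IFN200, IFNγ at 200 pg for those titled IFN2000, and IFNγ at 2000 pg where the title reads Oxali. If the agent is right, the names of the single treatments below change places. By the titles, 8911 genes were called for Oxali against Ctrl and 15 for IFN200, and Combo200 differed in 241 genes from the libraries titled Oxali and in 9217 from those titled IFN200.

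Class I molecules display short peptides to CD8 T cells. The proteasome cuts proteins in the cytosol, the TAP transporter, a dimer of Tap1 and Tap2, pumps the peptides into the ER, and Erap1 trims them to length. Tapasin (Tapbp), calreticulin (Calr) and the thiol oxidoreductase Pdia3 hold the empty class I molecule next to TAP, calnexin (Canx) folds its chain beforehand, the tapasin relative Tapbpl edits the bound peptide away from TAP, and Sec22b is a SNARE of ER-to-Golgi vesicles that has also been linked to cross-presentation in dendritic cells. IFNγ is known to induce the transporter, tapasin and Erap1.

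The libraries held 18749975 to 25931516 counts, and levels are given as CPM, the counts scaled to library size by TMM. Among prostate epithelium and Myc-CaP markers, Myc, Hoxb13 and Krt8 were well detected, whereas Epcam had no count in any library and Cdh1 and Krt18 had 0 to 6. T cell markers set IFN2000 replicate 2 apart, where 9 of 12 had more than 3 counts and all 12 together 467, against 0 to 3 markers and at most 57 counts in the other libraries. That library held 117 counts of Ifng and 175 of Gzmb but none of Cd8a, and Combo200 replicate 3 held 9 of Ifng and 7 of Gzmb. The part of these cells or reads in the results was not tested, and results that lost a call without IFN2000 replicate 2 are given without it. The 2 IFN2000 libraries also carried a trend with transcript length (Spearman correlation over genes between length and the log2 ratio to Ctrl of -0.35 and -0.19, against -0.02 to 0.15 elsewhere). Some markers of other cell types were higher with Oxali. Heart muscle markers gave 3.32 to 6.22 CPM in the 6 libraries with Oxali and 1.06 to 1.42 in the others but IFN200 replicate 1, which had 8.94 CPM and 6 of 8 markers over 3 counts. Fibroblast markers gave 20.9 to 25.6 CPM with Oxali and 9.95 to 17.4 without, and macrophage and dendritic cell markers 1.53 to 2.18 and 0.530 to 1.27. T cell markers gave 1.24 to 2.20 CPM with Oxali and 0.133 to 0.564 in the others but IFN2000 replicate 2. Most of each list stayed at or under 3 counts with Oxali, and Adgre1, Itgam and Itgax had no count in any library. The heart, fibroblast and T cell markers with enough counts to be tested were Tnnt2, Pdgfra and Lck, which rose with Oxali by 2.37 (SE 0.28, adjusted p = 2.85e-07), 0.73 (SE 0.09, adjusted p = 7.92e-07) and 1.96 (SE 0.55, adjusted p = 0.00366). Of the macrophage and dendritic cell markers, Csf1r and Cd68 could be tested. Csf1r, without a count in either Ctrl library, rose with Oxali by 6.19 (SE 1.46, adjusted p = 0.00128). Cd68 gave 0.26 (SE 0.35, adjusted p = 0.523) and was not called. The part of these lists in the Oxali results was not tested. Endothelium markers summed to at most 0.217 CPM. In bulk RNA, fewer cells of a type and less RNA per cell cannot be told apart.

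The RefSeq promoter windows (GRCm38.p6, 250 bases before to 50 after the start) of 7 of the 9 genes were searched on both strands with 6 motifs. Tap2 and Tapbpl are named only. These 4 stretches are shown for 3 reasons. Tap1 had the largest changes, Erap1 alone of the 7 held an IRF-type element, and Calr and Canx shared a motif that few promoters hold. Capitals mark the NF-κB-type pattern (GGG, any 5 bases, CC) in Tap1, the IRF-type pattern (GAAA, any 2 bases, GAAA) on the reverse strand in Erap1, and the ER stress element (CCAAT, any 9 bases, CCACG) in Calr, there on the reverse strand, and in Canx. All are written 5′ to 3′ along the gene.
Tap1, chr17:34187306-34187555, plus strand: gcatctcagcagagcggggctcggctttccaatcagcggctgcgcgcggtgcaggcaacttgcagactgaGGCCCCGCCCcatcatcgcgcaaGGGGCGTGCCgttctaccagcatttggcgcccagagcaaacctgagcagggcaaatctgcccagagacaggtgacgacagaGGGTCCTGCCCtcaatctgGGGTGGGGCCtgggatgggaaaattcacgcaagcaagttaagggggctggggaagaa
Erap1, chr13:74639829-74639858, plus strand: ccctgccggtccaccttcacTTTCACTTTC
Calr, chr8:84846932-84847181, minus strand: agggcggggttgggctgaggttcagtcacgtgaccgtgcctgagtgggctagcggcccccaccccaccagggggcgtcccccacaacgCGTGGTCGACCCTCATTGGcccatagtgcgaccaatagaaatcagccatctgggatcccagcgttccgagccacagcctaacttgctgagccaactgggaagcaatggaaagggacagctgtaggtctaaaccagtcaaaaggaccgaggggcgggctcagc
Canx, chr11:50325674-50325923, minus strand: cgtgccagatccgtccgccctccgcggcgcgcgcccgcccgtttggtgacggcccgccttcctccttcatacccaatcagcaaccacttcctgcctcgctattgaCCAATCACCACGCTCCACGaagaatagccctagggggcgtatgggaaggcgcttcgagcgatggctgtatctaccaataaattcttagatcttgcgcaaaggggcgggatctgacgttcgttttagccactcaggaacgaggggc
The ER stress element was in 0.119% of all 32851 windows of this length, the IRF-type pattern in 3.44% and the NF-κB-type pattern in 50.8%, the last also in Calr and Pdia3. The GAS pattern TTCNNNGAA (8.30% of windows) and the CRE TGACGTCA (1.79%) matched none of the 7 windows. CCAAT alone (37.4% of windows) matched 6 of the 7 and overlaps the ER stress element. A match describes these letters and is not a measured binding site. The Erap1 stretch lies inside the gene as placed below, from 74639568, and bases before that position were not searched.

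Both subunits of the transporter rose in every treatment, and Tap1 had the largest rise of the 9 genes in each comparison with Ctrl but Oxali, where it was Tap2. Tap1 lies on chromosome 17, 34187553 to 34197225, plus strand (GRCm38, as for all positions below). Its CPM were 1.00 and 1.17 for Ctrl, 2.65 and 3.14 for IFN200 and 14.8 and 13.9 for IFN2000, then 4.42 and 5.87 for Oxali, 39.6 and 38.5 for Combo200 and 79.4 and 76.8 for Combo2000. No 2 groups overlapped. Here and below, such statements describe the libraries only, since the share of all genes that separate in this way is not given. Ctrl rested on only 18 and 23 counts. The SE values come from the test statistic and are too small for the largest changes of Tap1. By edgeR's quasi-likelihood test, Tap1 rose on the log2 scale by 1.41 (SE 0.23, adjusted p = 0.01002) with IFN200, by 3.71 (SE 0.16, adjusted p = 4.52e-12) with IFN2000 and by 2.23 (SE 0.20, adjusted p = 8.67e-09) with Oxali. The rise was 5.16 (SE 0.13, adjusted p = 3.59e-17) for Combo200 and 6.16 (SE 0.12, adjusted p = 3.47e-19) for Combo2000, the latter 71.5-fold. The call for IFN200 was lost without any 1 of the 4 libraries compared, with adjusted p from 0.0717 to 0.554. Exons of Tap1 overlap those of Psmb9 on the opposite strand by 212 bases, 3.87% of the exonic bases of Tap1. The library kit keeps the strand, and whether counting used it is not stated.

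Tap2 lies beside it (chromosome 17, 34203527 to 34216321, plus strand). Without Oxali its libraries held 4.23 and 5.47 CPM (Ctrl), 7.86 and 7.42 (IFN200) and 15.1 and 16.7 (IFN2000), and with Oxali 26.0 and 24.6 (no IFNγ), 65.7 and 66.9 (Combo200) and 101 and 105 (Combo2000). Again no 2 groups overlapped, but Oxali now lay above IFN2000, where for Tap1 it lay below. Tap2 rose by 0.65 (SE 0.13, adjusted p = 0.0485) with IFN200, by 1.70 (SE 0.11, adjusted p = 1.44e-09) with IFN2000, by 2.38 (SE 0.10, adjusted p = 6.82e-14) with Oxali, by 3.76 (SE 0.08) with Combo200 and by 4.40 (SE 0.08, adjusted p = 1.90e-19) with Combo2000. Oxali against IFN2000 gave -1.48 (SE 0.11, adjusted p = 2.61e-10) for Tap1 and 0.67 (SE 0.07, adjusted p = 9.56e-08) for Tap2, where 71% of all genes were called. The call of Tap2 with IFN200 was lost without each of 10 of the 12 libraries, those of IFN2000 excepted, with adjusted p up to 0.915. Exons of Tap2 overlap the antisense genes Gm20496 by 165 bases and Gm15821 by 533 bases.

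**Figure D1:**
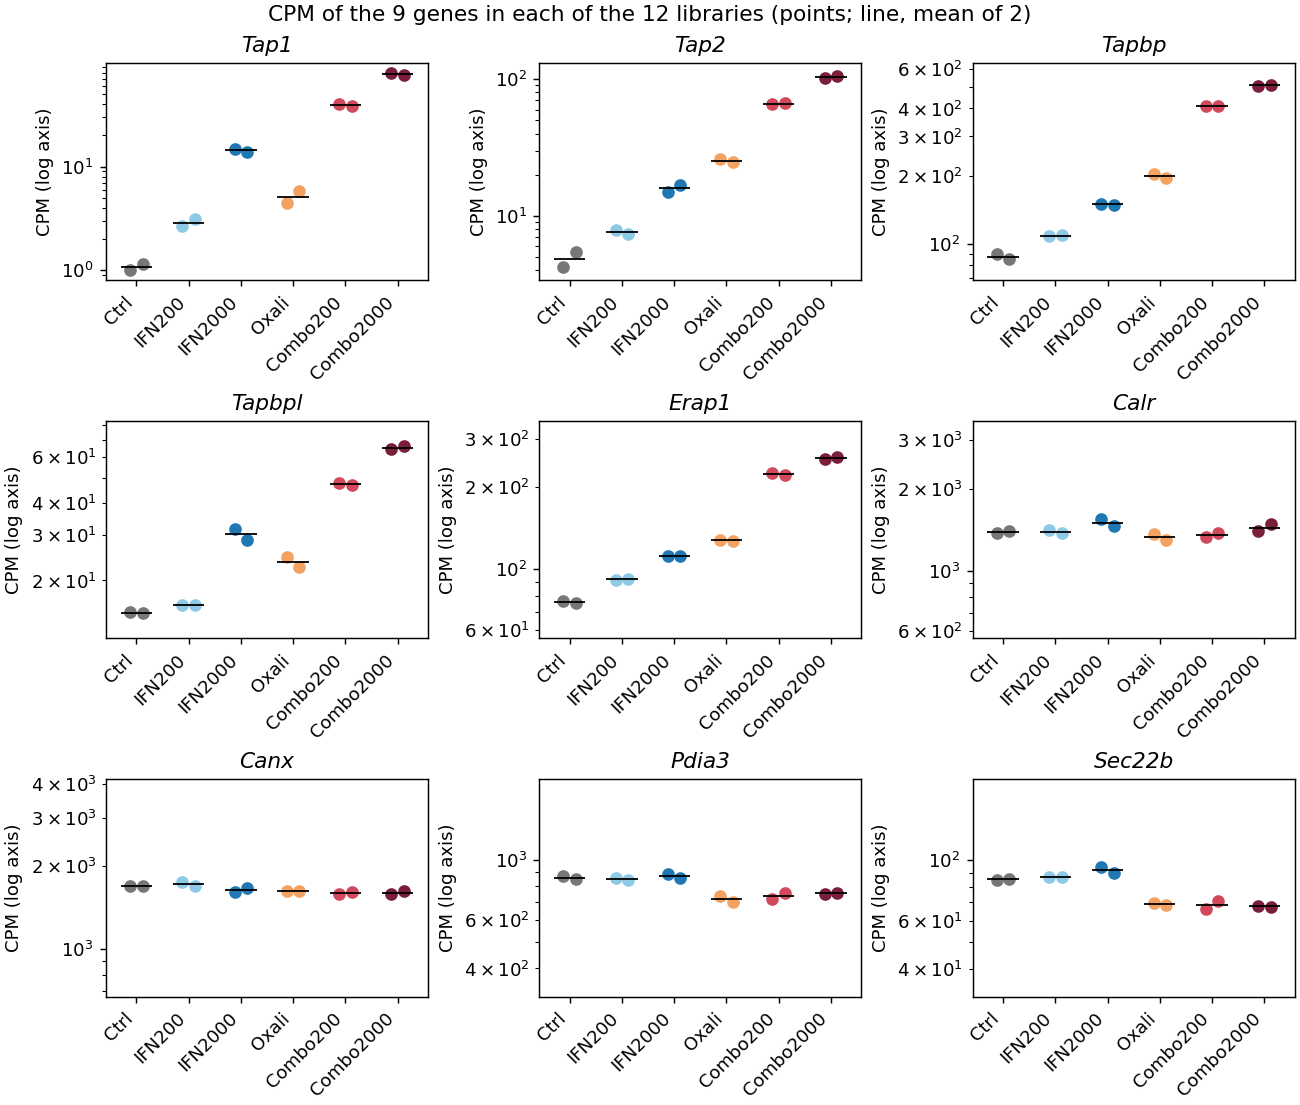
CPM (log axis, own range for each gene) of the 9 genes in each of the 12 libraries, by group; points are libraries and lines are means of 2. Tap1, Tap2, Tapbp, Tapbpl and Erap1 were lowest in Ctrl and highest in Combo2000, Tap1 from 1.00 and 1.17 to 79.4 and 76.8 CPM, while Pdia3 and Sec22b lay lower in the 6 libraries with Oxali and Calr and Canx stayed within a narrow band.

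Tapbp, which bridges TAP and the class I molecule, and its relative Tapbpl both rose, Tapbp more with Oxali than with IFN2000 and Tapbpl the other way round. Tapbp lies on chromosome 17, 33915899 to 33929292, plus strand. Its CPM were 89.4 and 85.6 for Ctrl, 108 and 109 for IFN200 and 149.5 and 149 for IFN2000, then 204 and 197 for Oxali, 409 and 409 for Combo200 and 506 and 509.8 for Combo2000. The 6 groups of Tapbp were fully separate. The rise in Tapbp was 0.31 (SE 0.04, adjusted p = 0.00122) with IFN200, 0.77 (SE 0.04) with IFN2000, 1.20 (SE 0.04) with Oxali, 2.23 (SE 0.04) with Combo200 and 2.54 (SE 0.04, adjusted p = 2.60e-20) with Combo2000. Without Ctrl replicate 2 the adjusted p for IFN200 was 0.0756. The antisense gene Gm19412 covers 24.9% of the exonic bases of Tapbp, and Zbtb22 shares 149 exonic bases with it on the same strand.

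Tapbpl lies apart from these, on chromosome 6, 125223933 to 125231860, minus strand. Without Oxali its libraries held 15.1 and 14.9 CPM (Ctrl), 16.1 and 16.0 (IFN200) and 31.6 and 28.7 (IFN2000), and with Oxali 24.6 and 22.6 (no IFNγ), 47.8 and 46.8 (Combo200) and 64.4 and 66.3 (Combo2000). Ctrl and IFN200 lay side by side, and IFN2000 lay above Oxali. With IFN200 the log2 change of 0.10 did not pass the test (adjusted p = 0.875, 95% interval -0.06 to 0.27). Tapbpl rose by 1.01 (SE 0.07, adjusted p = 5.46e-09) with IFN2000, by 0.66 (SE 0.07, adjusted p = 1.71e-07) with Oxali, by 1.66 (SE 0.07) with Combo200 and by 2.12 (SE 0.06, adjusted p = 3.24e-16) with Combo2000. Oxali against IFN2000 gave -0.35 (SE 0.06, adjusted p = 4.81e-05) for Tapbpl and 0.43 (SE 0.04, adjusted p = 4.55e-09) for Tapbp.

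Erap1, the ER aminopeptidase (chromosome 13, 74639568 to 74693201, plus strand), rose less than the transporter and tapasin in both combinations. Its CPM were 76.6 and 75.5 for Ctrl, 91.2 and 92.4 for IFN200 and 112 and 112 for IFN2000, then 128 and 127 for Oxali, 226 and 222 for Combo200 and 252 and 258 for Combo2000. Partners differed little and the 6 groups were separate. Erap1 rose by 0.27 (SE 0.04, adjusted p = 0.00496) with IFN200, by 0.56 (SE 0.04, adjusted p = 7.52e-09) with IFN2000, by 0.75 (SE 0.04) with Oxali, by 1.56 (SE 0.04) with Combo200 and by 1.75 (SE 0.04, adjusted p = 5.01e-18) with Combo2000. The call for IFN200 was lost without Ctrl replicate 1 (adjusted p = 0.118), Ctrl replicate 2 (0.170) or IFN200 replicate 1 (0.0717). Exons of Erap1 share 834 bases, 11.5% of its exonic length, with Cast on the opposite strand.

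Calr, Canx, Pdia3 and Sec22b did not share this rise. Calr, a lectin chaperone that buffers ER calcium, lies on chromosome 8, 84841850 to 84846934, minus strand. Its CPM were 1372 and 1401 for Ctrl, 1411 and 1370.0 for IFN200 and 1541 and 1457 for IFN2000, then 1364 and 1294 for Oxali, 1334 and 1377 for Combo200 and 1396 and 1482 for Combo2000. Neighbouring groups overlapped throughout the order of their means. With IFN2000 Calr rose by 0.11 (SE 0.04, adjusted p = 0.0427), a call lost under 10 of 20 alternatives, among them leaving out IFN2000 replicate 2 with its T cell counts (0.08, adjusted p = 0.287). The other 4 comparisons with Ctrl gave -0.06 to 0.05 and did not pass the test. For Combo2000 the 95% interval ran from -0.02 to 0.13, but a correction for length and GC content turned the value to -0.08 (adjusted p = 0.0174), and the same correction with the scale left to TMM gave 0.08 (adjusted p = 0.0210).

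Canx, the membrane-bound counterpart of Calr, lies on chromosome 11, 50293961 to 50325673, minus strand. Without Oxali its libraries held 1691 and 1688 CPM (Ctrl), 1758 and 1695 (IFN200) and 1614 and 1660.2 (IFN2000), and with Oxali 1622 and 1620.0 (no IFNγ), 1587 and 1611 (Combo200) and 1583 and 1621 (Combo2000). Both IFN200 libraries lay above Ctrl and the libraries of the other 4 treatments lay below it. Canx fell by 0.08 on the log2 scale with Combo200 (SE 0.03, adjusted p = 0.0201) and by 0.08 with Combo2000 (SE 0.03, adjusted p = 0.0241). Under upper-quartile scaling both calls were lost (adjusted p = 0.190 and 0.264), as was that for Combo200 without Combo200 replicate 2 (0.120) and that for Combo2000 without Ctrl replicate 2 (0.0567) or Combo2000 replicate 2 (0.09995). Oxali alone gave -0.06 (SE 0.03, adjusted p = 0.0749), which passed under 9 of 20 alternatives.

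Pdia3 and Sec22b fell wherever Oxali was present. Pdia3, the disulfide isomerase of the loading complex, lies on chromosome 2, 121413775 to 121438687, plus strand. Its CPM were 873 and 849 for Ctrl, 856 and 843 for IFN200 and 887 and 861 for IFN2000, then 740.1 and 702 for Oxali, 721 and 757 for Combo200 and 749.9 and 758 for Combo2000. The libraries with Oxali and those without it did not overlap. In the test of Oxali against Ctrl, 32.8% of all genes were called lower, which is not a share of genes that separate in this way. The change in Pdia3 was -0.26 (SE 0.04, adjusted p = 3.01e-06) with Oxali, -0.22 (SE 0.04, adjusted p = 1.73e-05) with Combo200 and -0.19 (SE 0.04, adjusted p = 8.57e-05) with Combo2000. IFN200 and IFN2000 gave -0.02 and 0.02 (95% intervals -0.09 to 0.06 and -0.05 to 0.10).

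Sec22b lies on chromosome 3, 97901190 to 97923276, plus strand. Without Oxali its libraries held 84.7 and 85.2 CPM (Ctrl), 87.0 and 86.9 (IFN200) and 94.6 and 90.0 (IFN2000), and with Oxali 69.4 and 68.5 (no IFNγ), 66.2 and 71.1 (Combo200) and 68.2 and 67.5 (Combo2000). As for Pdia3, the libraries with Oxali lay below the others, and IFN2000 was the highest group. Sec22b changed by -0.30 (SE 0.04, adjusted p = 6.85e-06) with Oxali, by -0.31 (SE 0.04, adjusted p = 4.56e-06) with Combo200 and by -0.32 (SE 0.04, adjusted p = 2.12e-06) with Combo2000. IFN2000 gave 0.12 (SE 0.04, adjusted p = 0.0625), a value that passed under RLE scaling (0.13, adjusted p = 0.0426), under upper-quartile scaling (0.14, adjusted p = 0.0337) and without IFN2000 replicate 3 (0.17, adjusted p = 0.0158).

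**Figure D2:**
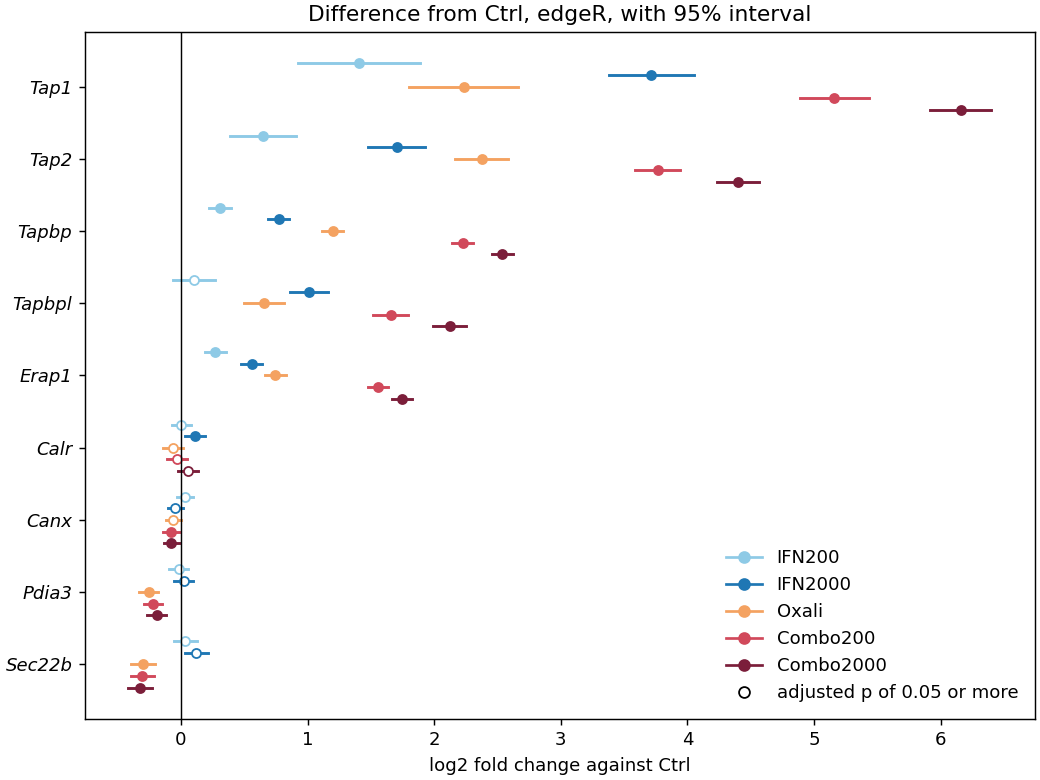
Log2 fold change against Ctrl (x axis) of the 9 genes in the 5 treatments, by edgeR, with 95% intervals as bars; open points have an adjusted p of 0.05 or more. The intervals come from the test statistic and are too narrow for the largest changes of Tap1 and Tap2. The 5 upper genes lay right of 0, up to 6.16 for Tap1 in Combo2000, while the 4 lower genes lay between -0.32 and 0.12.

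Counted over the 9 genes, 4 were called higher and 0 lower with IFN200 (Tap1, Tap2, Tapbp and Erap1), beside 0.114% of all genes called higher and 0% lower. Without Ctrl replicate 1 the count was 1, without Ctrl replicate 2 it was 0, without IFN200 replicate 1 it was 1 and without IFN200 replicate 2 it was 2. With IFN2000, 6 were called higher and 0 lower (8.39% and 8.47% of all genes). Without IFN2000 replicate 2 the 5 genes other than Calr were still called, from 0.57 for Erap1 to 3.67 for Tap1, and after correction for length and GC content Erap1 gave 0.61 and Tap1 3.72. The Oxali group had 5 members up and 2 down (34.8% and 32.8% of all genes), Combo200 had 5 and 3 (35.6% and 33.1%) and Combo2000 had 5 and 3 (35.7% and 33.5%). These comparisons share the Ctrl libraries. Correction for length and GC content moved the share of all calls that were higher from 51.5% to 39.6% with Oxali, from 51.8% to 39.1% with Combo200 and from 51.6% to 37.9% with Combo2000. It then called 5 higher and 4 lower members in each of these 3 comparisons, the latter being Calr, Canx, Pdia3 and Sec22b, with -0.21 and -0.23 for Canx in Combo200 and Combo2000 and -0.34 for Pdia3 in Combo2000. The median log2 fold change of the 9 was 0.66, 1.56 and 1.75 in these 3, beside 0.02 in each over all genes tested.

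Adding IFNγ to Oxali raised Tap1, Tap2, Tapbp, Tapbpl and Erap1. For Combo200 against Oxali 5 of the 9 were called higher and 0 lower (1.58% and 0.25% of all genes), and for Combo2000 against Oxali likewise 5 and 0 (3.37% and 0.987%). Tap1 rose by 2.93 (SE 0.09) at the low and 3.93 (SE 0.08) at the high dose, and Tap2 by 1.39 (SE 0.06) and 2.03 (SE 0.06). For Tapbp the rises were 1.03 (SE 0.04) and 1.34 (SE 0.04), for Tapbpl 1.00 (SE 0.06) and 1.47 (SE 0.06) and for Erap1 0.81 (SE 0.04) and 1.00 (SE 0.04). Calr gave 0.12 at the high dose (adjusted p = 0.0976), which passed with no filter on low counts (0.12, adjusted p = 0.00193) and without IFN2000 replicate 2 (0.0377) or IFN2000 replicate 3 (0.0352). Canx, Pdia3 and Sec22b gave -0.02 to 0.06, none called.

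Adding Oxali to IFNγ gave 5 higher and 3 lower at 200 pg (36.5% and 33.5% of all genes), where Canx changed by -0.11 (SE 0.03, adjusted p = 0.00207) along with Pdia3 and Sec22b. At 2000 pg 5 were higher and 2 lower (38.5% and 33.8%). Tap1 rose by 3.75 (SE 0.10) over IFN200 and by 2.45 (SE 0.07) over IFN2000, whereas Tap2 rose by 3.12 (SE 0.07) and 2.698 (SE 0.06). Sec22b changed by -0.34 (SE 0.04) and -0.44 (SE 0.04).

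On the log2 scale the step from 200 to 2000 pg was larger without Oxali than with it for the 5 induced genes, a difference that was not tested. In CPM the step was larger with Oxali for each of the 5. Tap1 went from a mean of 2.89 to 14.3 CPM without Oxali and from 39.1 to 78.1 with it. The steps below are in log2. IFN2000 against IFN200 called 6 members higher and 0 lower (11.3% and 11% of all genes), and Combo2000 against Combo200 called 5 higher and 0 lower (1.21% and 0.167%). Tap1 rose by 2.31 (SE 0.12) without Oxali and by 1.00 (SE 0.06) with it, and Tap2 by 1.06 (SE 0.09) and 0.64 (SE 0.05). For Tapbp the steps were 0.46 (SE 0.04) and 0.31 (SE 0.04), for Tapbpl 0.91 (SE 0.07) and 0.47 (SE 0.05) and for Erap1 0.29 (SE 0.04) and 0.19 (SE 0.04). The step of Erap1 with Oxali was lost without Combo200 replicate 2 (adjusted p = 0.0516), Combo200 replicate 3 (0.136) or Combo2000 replicate 3 (0.0943). The sixth call without Oxali was Calr, at 0.11 (SE 0.04, adjusted p = 0.0414), lost without IFN2000 replicate 2 (adjusted p = 0.290).

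Whether the IFNγ change in log2 depended on Oxali was asked with an interaction, the change of the combination over Oxali minus that of IFNγ over Ctrl. At 200 pg 5 genes were called above 0 and 0 below (0.562% and 0.137% of all genes): Tap1 by 1.52 (SE 0.29, adjusted p = 0.0133), Tapbpl by 0.90 (SE 0.10, adjusted p = 2.10e-05), Tap2 by 0.74 (SE 0.14, adjusted p = 0.0145), Tapbp by 0.72 (SE 0.05, adjusted p = 1.50e-07) and Erap1 by 0.54 (SE 0.05, adjusted p = 7.18e-06). Without Ctrl replicate 2 the count was 3, as it was without IFN200 replicate 1. Tap1 was lost without Ctrl replicate 1 (adjusted p = 0.135), Ctrl replicate 2 (0.363) or IFN200 replicate 1 (0.102). Tap2 was lost without Ctrl replicate 2 (0.436), IFN200 replicate 1 (0.0709), IFN200 replicate 2 (0.0668), Oxali replicate 2 (0.0774) or Combo200 replicate 3 (0.0822).

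At 2000 pg 3 were called above 0 and 0 below (2.12% and 0.6% of all genes): Tapbp by 0.57 (SE 0.05, adjusted p = 2.07e-06), Tapbpl by 0.46 (SE 0.09, adjusted p = 0.00996) and Erap1 by 0.44 (SE 0.05, adjusted p = 4.62e-05). Tap1 gave 0.21 (95% interval -0.33 to 0.75) and Tap2 0.32 (0.05 to 0.60), with adjusted p of 0.748 and 0.213. Tapbpl was lost without Ctrl replicate 1 (adjusted p = 0.107), Ctrl replicate 2 (0.0783) or Oxali replicate 2 (0.0620), leaving a count of 2. Calr, Canx, Pdia3 and Sec22b gave -0.14 to 0.05 over both doses, none called.

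**Figure D3:**
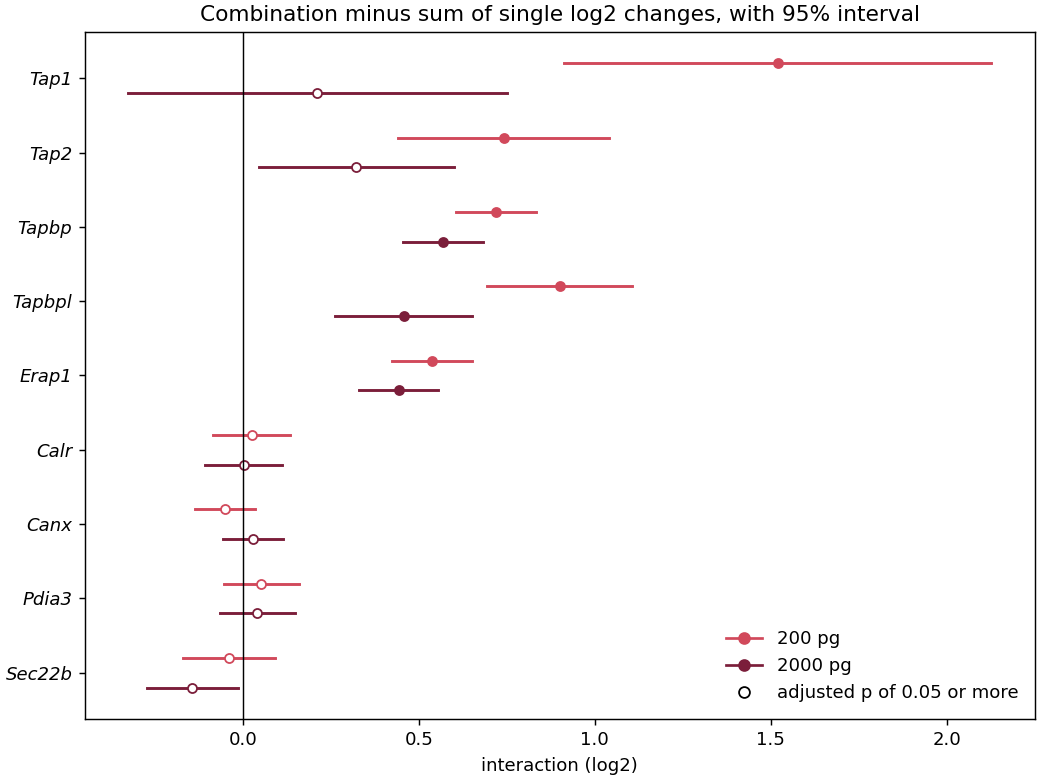
Interaction (x axis, log2) of Oxali with IFNγ at 200 and 2000 pg for the 9 genes, with 95% intervals as bars; open points have an adjusted p of 0.05 or more. Values of the 5 induced genes lay right of 0, 1.52 at 200 pg for Tap1, and those of Calr, Canx, Pdia3 and Sec22b lay between -0.14 and 0.05.

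On the linear CPM scale the 5 induced genes exceeded the sum of the single changes (Oxali plus IFNγ minus Ctrl) in both libraries at both doses, which is a description without a test. Tap1 reached 39.1 CPM in Combo200 where the sum was 6.95, and 78.1 in Combo2000 where it was 18.4, ratios of 5.62 and 4.25. For Tap2 the ratios were 2.36 and 2.84, for Tapbp 1.85 and 1.94, for Tapbpl 1.92 and 1.68 and for Erap1 1.56 and 1.56. Calr, Canx, Pdia3 and Sec22b lay between 0.889 and 1.04 times the sum.

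Divided by exon length, the levels of the 9 genes spread widely in Ctrl. Per kb of exon Tap1 stood at 0.198 ± 0.0212 CPM in Ctrl (SD, n = 2) and Tap2 at 1.28 ± 0.233. Tapbpl stood at 6.37 ± 0.0535, Erap1 at 10.4 ± 0.106, Sec22b at 21.4 ± 0.0909 and Tapbp at 24.1 ± 0.743. The chaperones were far above these, with 274 ± 5.51 for Pdia3, 360.0 ± 0.473 for Canx and 481 ± 7.28 for Calr. In Combo2000 Tap1 reached 14.3 ± 0.328 and Tap2 27.3 ± 0.668, the latter within an SD of Tapbpl at 27.8 ± 0.587, and Tapbp reached 140.0 ± 0.775.

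**Figure D4:**
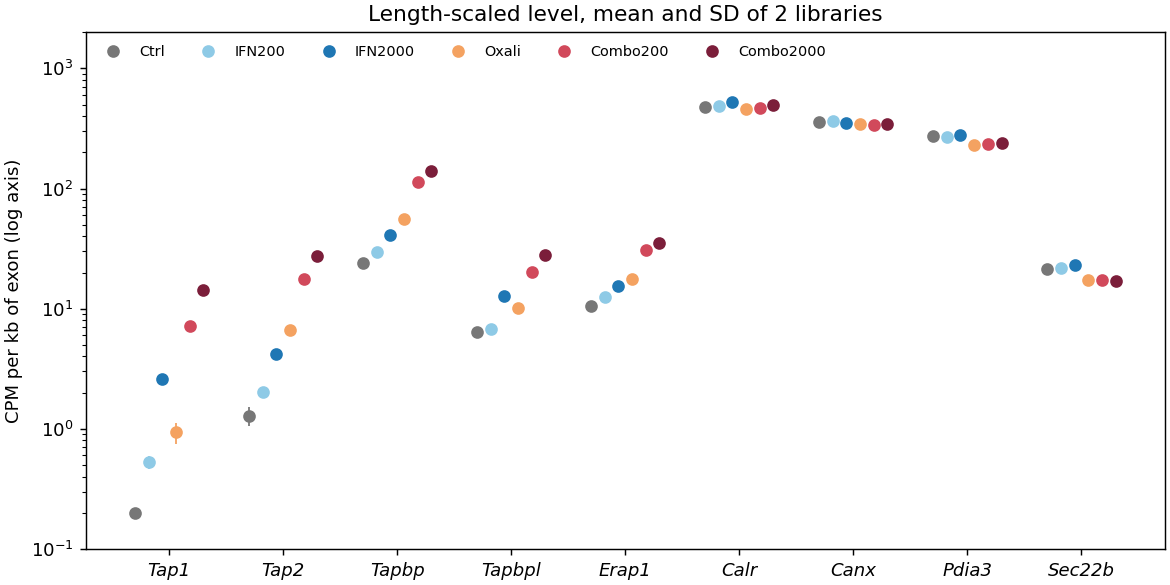
CPM per kb of exon (log axis), mean and SD of 2 libraries, for the 9 genes in the 6 groups. Tap1 and Tap2 began lowest, at 0.198 and 1.28, and Calr, Canx and Pdia3 stayed highest in every group.

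Ratios between partner genes were compared within libraries, which removes the scaling between libraries. The level of Tap1 per kb relative to Tap2 was 0.167 and 0.150 for Ctrl, 0.234 and 0.293 for IFN200 and 0.677 and 0.573 for IFN2000, then 0.118 and 0.165 for Oxali, 0.417 and 0.398 for Combo200 and 0.540 and 0.505 for Combo2000. It was higher at each step of the IFNγ dose, with and without Oxali, and Oxali and Ctrl overlapped. Averaged over the 3 IFNγ doses, libraries with Oxali differed from those without by 0.07 on the log2 scale (exact permutation test within doses, two-sided p = 0.704, adjusted over 3 pairs 0.704). The average held differences of opposite sign, -0.18 with no IFNγ, 0.64 at 200 pg and -0.25 at 2000 pg.

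Tapbp relative to Tapbpl was 3.84 and 3.72 for Ctrl, 4.33 and 4.40 for IFN200 and 3.07 and 3.36 for IFN2000, then 5.38 and 5.64 for Oxali, 5.54 and 5.67 for Combo200 and 5.09 and 4.98 for Combo2000. All 6 libraries with Oxali lay above the 6 without. The difference was 0.52 on the log2 scale (exact permutation p = 0.00926, the smallest this design can give, adjusted 0.0278), with 0.54, 0.36 and 0.65 at the 3 doses. How many other pairs of genes reach the same p was not tested. Calr relative to Canx differed by 0.01 with Oxali (exact permutation p = 0.583, adjusted 0.704), and its libraries ran from 1.302 to 1.56.

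**Figure D5:**
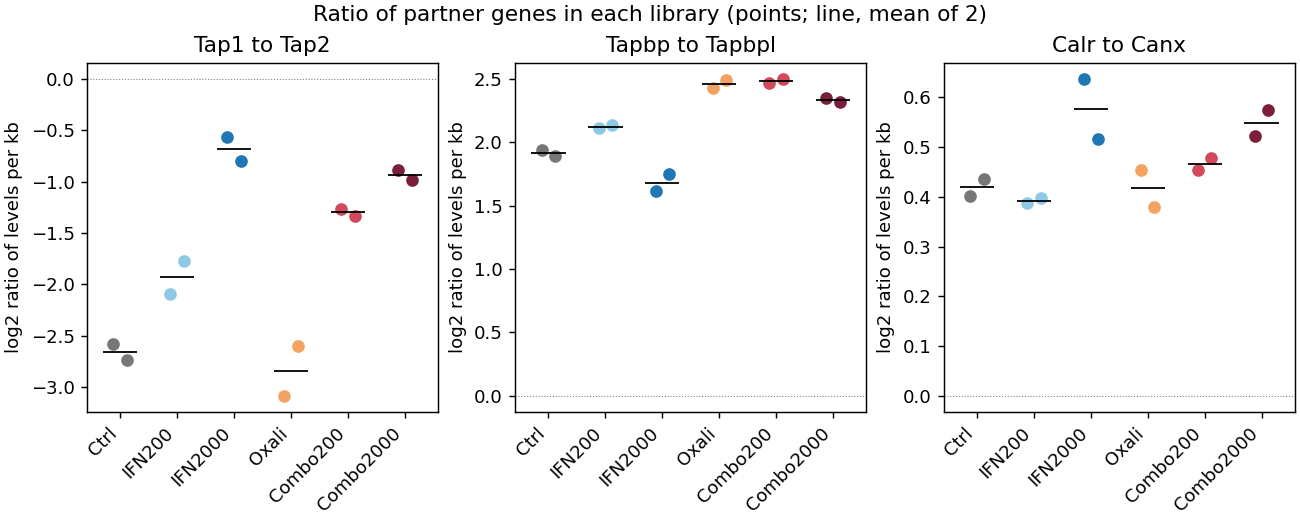
Log2 ratio of levels per kb in each library for 3 pairs of partner genes, by group; points are libraries, lines are means of 2 and the dotted line marks equal levels. Tap1 to Tap2 was higher at higher IFNγ doses, Tapbp to Tapbpl was higher in the 6 libraries with Oxali, and Calr to Canx overlapped between libraries with and without Oxali.

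The order of the 6 groups was not the same for the 5 induced genes. Tap2, Tapbp and Erap1 had the order Ctrl, IFN200, IFN2000, Oxali, Combo200, Combo2000, with every neighbouring pair called. Tap1 and Tapbpl had Oxali below IFN2000, and for Tapbpl the pair Ctrl and IFN200 was not called. Over the 9 genes 26 of 45 neighbouring pairs were called. Neighbours were set by these same group means, and the share of such pairs called over all genes is not given. Some neighbours formed pairs not described above, for which 68.2% (Oxali, IFN200), 70% (Combo2000, IFN200) and 72.2% (Combo200, IFN2000) of all genes were called. No pair was called for Calr or Canx, and 1 each for Pdia3 and Sec22b, the step between the groups with Oxali and those without.

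For each induced gene the most alike pattern was sought among 10558 other genes, by the root mean square difference of the 5 log2 changes against Ctrl. For Tap1 it was Gbp7, a guanylate binding protein (0.42), for Tap2 Apol11a (0.37), for Tapbp Il15ra, the receptor chain that presents interleukin 15 (0.18), for Tapbpl 9930111J21Rik2 (0.22) and for Erap1 Idnk (0.12). Psme2, a proteasome activator subunit, was the third nearest to Erap1 (0.17), and H2-T23, a nonclassical class I gene, the third nearest to Tapbp (0.24). Among the members themselves Tapbpl and Erap1 were nearest (0.28), while Tap1 and Tap2 stood 1.39 apart.

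Other genes of the pathway were counted beside the members. Of 9 class I and proteasome genes, 2 were called higher with IFN200, 9 with IFN2000, 8 with Oxali and 9 with either combination, 0 lower, and the median log2 change was 0.55 with Oxali and 1.64 with Combo2000. Of all genes 0.114% were called higher with IFN200, 8.39% with IFN2000, 34.8% with Oxali, 35.6% with Combo200 and 35.7% with Combo2000. Called lower, in the same order, were 0%, 8.47%, 32.8%, 33.1% and 33.5%. Nlrc5, the class I transactivator, had 2 and 0 counts in the Ctrl libraries, 3 and 2 with Oxali, 74 and 60 with IFN2000 and 485 and 379 with Combo2000. Psmb9 and Psmb8, immunoproteasome subunits beside Tap1 and Tap2, held few counts in the Ctrl libraries, 7 and 4 for the former and 4 and 4 for the latter. With Combo2000 Psmb9 reached 2278 and 1920 counts and rose by 8.14 (SE 0.13, adjusted p = 3.33e-20), and Psmb8 reached 1061 and 887. With so few Ctrl counts, the SE of Psmb9 is too small.

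Other ER folding genes mostly fell with Oxali, as Pdia3 did. Of 19, 3 were called higher and 14 lower with Oxali (median -0.54), beside 34.8% and 32.8% of all genes. Combo2000 called 3 higher and 12 lower (median -0.48), beside 35.7% and 33.5% of all genes. IFN2000 called 1 higher and 0 lower, beside 8.39% and 8.47%. With Combo2000 Mogs, the glucosidase that starts glycan trimming, changed by -1.81 (SE 0.04, adjusted p = 2.15e-17), Manf by -1.23 (SE 0.05, adjusted p = 6.48e-14) and Sdf2l1 by -1.005 (SE 0.07, adjusted p = 3.16e-10).

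Of 7 other peptidases that act on antigenic peptides, 0 were called higher and 5 lower with Oxali, where Erap1 rose, beside 34.8% and 32.8% of all genes. With Combo2000 Blmh changed by -0.82 (SE 0.04, adjusted p = 2.53e-12), Thop1 by -0.77 (SE 0.04, adjusted p = 1.45e-12) and Npepps by -0.43 (SE 0.05, adjusted p = 1.15e-07). The 8 SNARE genes that act with Sec22b split in the Oxali group, 3 up and 3 down, and gave the same numbers in either combination, shares of the list near those of all genes given above. Use1 rose by 0.35 (SE 0.05, adjusted p = 5.37e-06) and Stx4a by 0.31 (SE 0.05, adjusted p = 3.80e-05) with Combo2000, whereas Bnip1 changed by -0.27 (SE 0.08, adjusted p = 0.00556). As a check of the titles, 10 p53 target and drug response genes summed to 444 to 456 CPM in the 6 libraries titled with Oxali and to 394 to 409 CPM in the other 6. Of these 10, beside 34.8% of all genes higher and 32.8% lower, 6 rose and 2 fell with Oxali, the latter being Bax, a mediator of apoptosis, by 0.88 (SE 0.05, adjusted p = 3.49e-12) and Ccng1 by 0.31 (SE 0.04, adjusted p = 3.83e-06). IFN200 called 0 and 0 of the 10 (0.114% and 0% of all genes) and IFN2000 3 and 3 (8.39% and 8.47%).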

How the data were processed

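The authors deposited raw counts per gene for 12 libraries, 1 column each, and all columns were used (columns not used, 0). The study's methods name STAR, featureCounts and GENCODE on GRCm38, and the submitters' processing notes list STAR 2.7.3a and RSEM 1.3.0. Whether counting used the strand was not stated. Gene positions came from a GENCODE release of the same build, which may not be the authors' release. Counts were filtered with filterByExpr (minimum count 10, minimum total 15), which kept 13177 genes, scaled by TMM and tested with edgeR 4.0.16 (quasi-likelihood) in R 4.3.3, all 12 libraries in 1 model with a mean per group and 13 contrasts. A call means an adjusted p under 0.05, by Benjamini-Hochberg over all genes tested in that contrast. The scripts were tested on simulated counts. Partner ratios, with 0.5 added to each count, were tested by exact permutation within IFNγ doses. At these depths 3 counts are 0.111 to 0.167 CPM, counting error only. The alternatives were RLE and upper-quartile scaling, no filter, DESeq2 1.42.0, a replicate block, only the groups compared, a length and GC correction, and leaving out each library. Genes outside the 9 were named by rule: up to 3 called genes per list with the largest change in Combo2000, Psmb9, and the 3 nearest patterns. Marker genes and counts, Bax and Ccng1 were chosen after their values were seen. Some marker genes are not reported here. The members, lists and tests were chosen with earlier results of these data known.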

Additional observations from a re-analysis of the deposited data

Results flagged for a closer look

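The change with IFNγ differed between cells with and without Oxali, by the interaction term of the edgeR model, for 5 of the 9 genes at 200 pg and for 3 at 2000 pg, all above 0. Over all genes 0.562% were called above 0 and 0.137% below at 200 pg, and 2.12% and 0.6% at 2000 pg. At 200 pg the differences were 1.52 for Tap1, 0.74 for Tap2, 0.72 for Tapbp, 0.90 for Tapbpl and 0.54 for Erap1 on the log2 scale. At 2000 pg they were 0.57 for Tapbp, 0.46 for Tapbpl and 0.44 for Erap1. Without Ctrl replicate 2 or IFN200 replicate 1 the count at 200 pg went from 5 to 3, with adjusted p up to 0.363 for Tap1 and 0.436 for Tap2, and at 2000 pg Tapbpl was lost without Ctrl replicate 1, Ctrl replicate 2 or Oxali replicate 2 (adjusted p up to 0.107).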

How the results depend on the processing

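Of 2340 values of single genes under an alternative, 2253 kept their side of the threshold and any called direction, 59 lost their call, 27 gained one and 1 reversed. The reversal was Calr in Combo2000 against Ctrl with the length and GC correction (-0.081). That correction moved the median of all genes by -0.12 to -0.16 between groups with and without Oxali. With the scale left to TMM, an alternative chosen after seeing the data, Calr gave 0.08. The sum of single changes was also chosen after seeing the data. The count of called members for IFN200 was 4 and ran from 0 to 4 when 1 library was left out, and that for the interaction at 200 pg was 5 and ran from 3 to 5. The other counts stayed within 1.5 times under all alternatives run. Replicate numbers showed no pairing between groups with the same numbers, where deviations of same-numbered libraries correlated between -0.05 and 0.02. Ctrl, IFN200 and Oxali are numbered 1 and 2, and the other groups 2 and 3. Pairing across these sets was not examined, and a batch that follows this split was not tested. With the replicate block 3 members were called for IFN200 and 4 for the interaction at 200 pg, Tap2 being lost in both (adjusted p = 0.0847 and 0.0618), and Calr was lost for IFN2000 against Ctrl (adjusted p = 0.117) and against IFN200 (0.110). The block changed no other call of a member. Over all genes, calls for IFN200 were 15, with 102 without the filter, 48 with only the groups compared and 28 with the length and GC correction, and calls for IFN2000 went from 2221 to 1071 with the block. Elsewhere they moved by over 1.5 times for Combo200 against Oxali (241, then 372 unfiltered, 142 block), Combo2000 against Oxali (574, then 940 length and GC, 331 block, 373 DESeq2), IFN2000 against IFN200 (2943, then 1588 block), Combo2000 against Combo200 (181, then 281 length and GC) and the interactions at 200 pg (92, then 262 unfiltered, 48 block, 142 length and GC, 172 only the groups compared) and 2000 pg (359, then 785 unfiltered, 623 length and GC, 217 DESeq2). The share of calls that were higher moved by over 10 percentage points with the length and GC correction in 11 of the 13 comparisons, most in the interaction at 2000 pg (78.0% to 47.5%) and in Combo2000 against Oxali (77.4% to 46.1%), and with upper-quartile scaling in both interactions (80.4% to 70.4% at 200 pg, 78.0% to 59.0% at 2000 pg). The ratio of Tapbp to Tapbpl gave 0.50 to 0.54 without 1 library, that of Tap1 to Tap2 -0.01 to 0.15 and that of Calr to Canx -0.01 to 0.03. With 18 and 23 counts of Tap1 in Ctrl, its changes against Ctrl had the largest SE of the 9 genes. For its largest changes even these are too small.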
